A study of Mus musculus with 18 samples.

Results

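The genes described here are the transcription factors that set the regional identity of the intestinal epithelium: the GATA factors Gata4, Gata5 and Gata6, the caudal homeobox factors Cdx1 and Cdx2, the homeobox factors Onecut2 and Pdx1, and the membrane-bound factor Creb3l3. They were selected by gene symbol, with earlier results of these data known, and are 8 of the 43346 genes in the table of counts. All 8 passed the filter of a mean count above 0, which 26717 genes passed. Their RNA was measured in Lgr5+ cells of untreated C57BL/6 mice, 8 to 20 weeks old by label, that carry the Lgr5_eGFP_Iris_creERT2 allele. The study's methods write this allele as Lgr5eGFP-Ires-CreERT2, and in it GFP is driven by the Lgr5 locus. EPCAM-positive cells were sorted by high, medium or low GFP, which stand for centre, border and row >3 cells of the crypt, from small intestine (SI) and large intestine (LI). There were 3 replicates in each of these 6 groups and thus 18 libraries. All groups share the genotype, the strain and the absence of treatment, and the knock-in allele is patchily expressed. The study's methods differ from the labels in giving a wider age range and both sexes for its RNA sequencing, and mice of a mixed background beside C57BL/6. The study's methods name distal ileum and caecum for crypts isolated for staining, but its description of these libraries says only small and large intestine. The mouse behind each replicate number is not given, so p-values measure the spread between these libraries.

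The intestinal tube is patterned along its length by such factors. GATA4 is known for jejunal identity of the proximal SI, where it holds back ileal genes. GATA6 acts along the whole intestine, and GATA5 is a related factor. CDX2 with its partner CDX1 makes the endoderm intestinal rather than gastric and is expressed along SI and LI alike. PDX1 is a factor of the pancreas and the duodenum, ONECUT2 is a duodenal factor that is also used in endocrine cells, and CREB3L3, also named CREBH, is held in the endoplasmic reticulum membrane and controls apolipoprotein and lipid genes in liver and SI once it is cleaved.

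Between 8312093 and 31940965 counts fell on genes in each library, with a median of 21934852. Values are given as normalised counts, which are counts divided by the authors' size factor of that library. A gene was called when its Benjamini-Hochberg adjusted p over all genes in edgeR's quasi-likelihood test was under 0.05. The 3 SI libraries with replicate number 3 stood apart from the other 6 SI libraries. Zfpm1, a cofactor that binds GATA factors, had 1156 to 2181 normalised counts in SI replicates 1 and 2, 331 to 526 in SI replicate 3 and 68.6 to 166 in the LI. Car1, a colonic carbonic anhydrase, reached 38981 normalised counts in row >3 cells of SI replicate 3 and at most 215 in SI replicates 1 and 2, against 2498 or more in every LI library. The same 3 libraries kept SI genes, with 351 to 441 normalised counts of the sterol transporter Abcg5 and 938 to 12200 of the Paneth cell lysozyme Lyz1, which did not exceed 1.52 in any LI library. Hoxb13 and Hoxd13, markers of the distal colon, did not exceed 1.52 in any library of either site, so these genes do not mark the LI cells as distal. In stem cell markers SI replicate 3 was lowest of the SI at each level, with a summed level of 28899 in centre cells, 3076 in border cells and 1161 in row >3 cells, where replicates 1 and 2 had 102051 or more, 38242 or more and 6969 or more. Its Paneth cell marker sum was 11017 in border and 4257 in row >3 cells, against 64871 to 123391 in replicates 1 and 2, and 38210 in centre cells, between the 34462 of replicate 1 and the 160057 of replicate 2. Calls of members are therefore given with 18 libraries and, where they differ, also with the 15 libraries that leave out SI replicate 3. The same holds for the counts or called genes of most gene lists between the sites and from centre to row >3 cells.

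**Figure D1:**
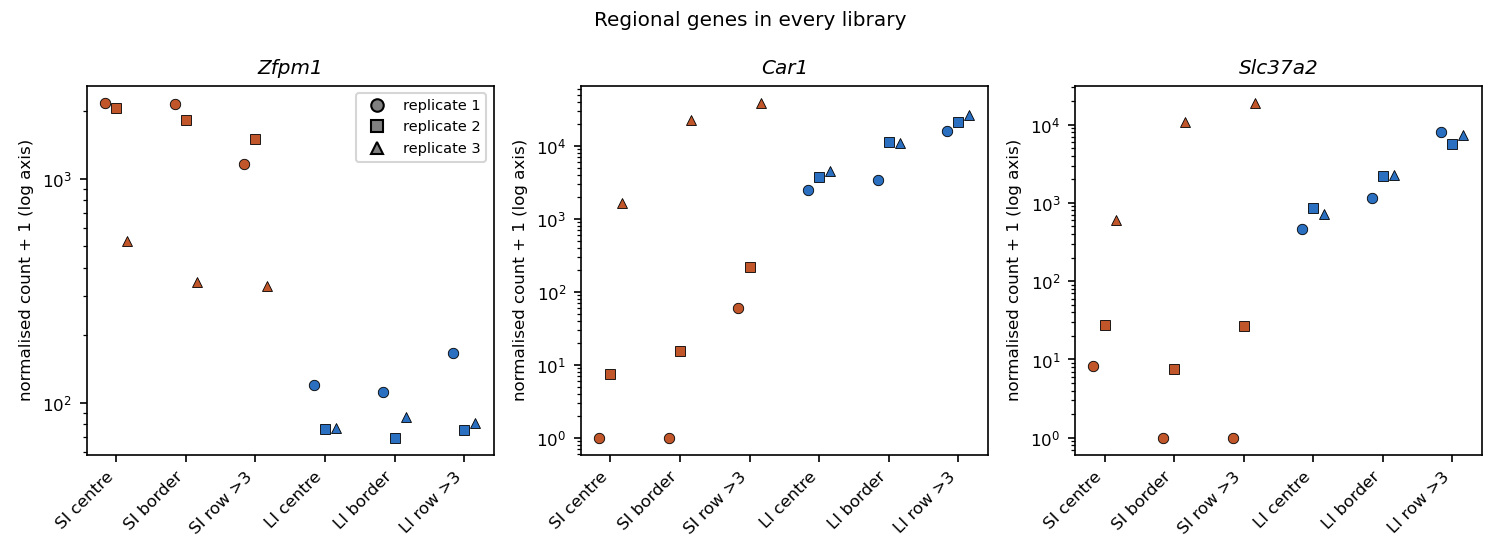
Normalised count plus 1 on a log axis for Zfpm1, Car1 and Slc37a2 in each library, by group, with replicates marked apart. These 3 genes were chosen after their values were seen, and the SI replicate 3 libraries lie near, within or above the LI libraries for Car1 and Slc37a2 and between the sites for Zfpm1.

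Windows of 250 bases before a transcript start are shown for Creb3l3, the member with a GATA word in its window, and for 3 genes of the lists used below, Abcg5, Lct and Sis, since GATA and CDX factors are known to act on genes of this kind. Abcg5, Lct and Sis were chosen after their values were seen. Sequences are from RefSeq on GRCm38.p6, on the strand of the gene and 5′ to 3′, with bases in annotated exons left out. Capitals mark the GATA words, which are AGATAA together with its variant AGATAG, the word TGATAA together with its variant TGATAG, and the CDX word TTTATG, all searched on both strands. The first start of Creb3l3 lies inside the gene, and the stretch shown is chr10:81092658-81092806. The second is the outer start, at chr10:81098875-81099122. Abcg5 is shown at chr17:84683012-84683120, Lct at chr1:128328319-128328568 and Sis at chr3:72967864-72968113, all on the minus strand.
Creb3l3, inner start: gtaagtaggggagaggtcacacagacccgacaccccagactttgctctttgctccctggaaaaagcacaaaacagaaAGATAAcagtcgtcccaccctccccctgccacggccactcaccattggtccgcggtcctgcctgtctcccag
Creb3l3, outer start: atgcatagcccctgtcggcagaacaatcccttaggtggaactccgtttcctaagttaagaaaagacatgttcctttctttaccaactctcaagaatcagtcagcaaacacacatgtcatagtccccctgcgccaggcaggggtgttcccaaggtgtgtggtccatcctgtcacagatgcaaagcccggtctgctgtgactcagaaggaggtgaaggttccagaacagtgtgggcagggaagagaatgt
Abcg5: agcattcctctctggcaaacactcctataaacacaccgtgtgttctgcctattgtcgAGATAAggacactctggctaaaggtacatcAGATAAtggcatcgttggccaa
Lct: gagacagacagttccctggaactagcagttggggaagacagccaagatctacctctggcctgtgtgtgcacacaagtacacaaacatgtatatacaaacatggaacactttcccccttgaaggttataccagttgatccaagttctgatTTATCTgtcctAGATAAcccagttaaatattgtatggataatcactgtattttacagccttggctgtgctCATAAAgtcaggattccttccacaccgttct
Sis: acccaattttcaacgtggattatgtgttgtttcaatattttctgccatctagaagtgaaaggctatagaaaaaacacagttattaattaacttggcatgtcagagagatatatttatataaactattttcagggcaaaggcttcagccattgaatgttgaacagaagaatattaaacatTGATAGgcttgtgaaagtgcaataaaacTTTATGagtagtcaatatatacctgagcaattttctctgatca

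Of the 8 members, 4 had a window in the table (Gata5, Cdx2, Pdx1 and Creb3l3), and Creb3l3 alone of these held a GATA word, 138 bases before its inner start. None of the 4 held the CDX word. Over 32851 windows of the same length, 26.5% held a GATA word, 10.8% the CDX word and 4.03% both. Abcg5 held GATA words 52 and 22 bases before its start, Lct held them at 101 and 90 bases with a CDX word at 31, and Sis held a GATA word at 71 and a CDX word at 43. Of known Cdx2 target genes, 6 of 8 had a window, of which 5 held a GATA word and 2 the CDX word. Of proximal SI genes, 9 of 12 had a window, of which 4 held a GATA word and 2 the CDX word. Among 13 transcription factor partners of the members, 9 had a window, of which 3 held a GATA word and none the CDX word, and of 6 Creb3l3 targets all had a window, of which 2 held a GATA word and none the CDX word. A gene was counted when any of its windows held the word, while the percentages over all windows are per window. The windows of Abcg5 and Abcg8 overlap and share GATA words. These matches describe the letters of the windows and are not binding sites.

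The members lie on 5 chromosomes of GRCm38 (mm10) in GENCODE release M21. Gata5 is at chr2:180325133-180334699 on the minus strand, Creb3l3 at chr10:81084324-81098874 on the minus strand and Gata4 at chr14:63198922-63271692 on the minus strand. Pdx1, at chr5:147269959-147275848 on the plus strand, and Cdx2, at chr5:147300805-147307270 on the minus strand, are neighbours. Gata6, Cdx1 and Onecut2 are on chromosome 18, at chr18:11052064-11085635 on the plus strand, chr18:61018862-61036199 on the minus strand and chr18:64340020-64400987 on the plus strand. Gata5 shares 258 exon bases with the antisense gene Gata5os, which reached a group mean of 2.26 CPM, and Gata6 shares 93 with 1010001N08Rik, which reached 17.9 CPM in SI centre cells. Whether counting used the strand is not given in the sources used here, and a part of the reads in those bases could belong to either gene.

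To see where each factor is used, levels were first compared between SI and LI at each GFP level, and 4 members were called in centre cells, 3 in border cells and 3 in row >3 cells. Gata4, Gata5 and Creb3l3 were higher in the SI at all 3 levels, and Cdx1 was lower in SI centre cells. Of all 26717 genes, 1.99% were called in centre cells, 1.76% in border cells and 4.09% in row >3 cells. Without SI replicate 3 the numbers of members were 4, 3 and 4, with Cdx2 in place of Creb3l3 in centre and border cells and beside it in row >3 cells. The background then rose to 10.9%, 8.11% and 12.2% of genes. In bulk cells, fewer cells with a transcript and less of it per cell cannot be told apart.

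**Figure D2:**
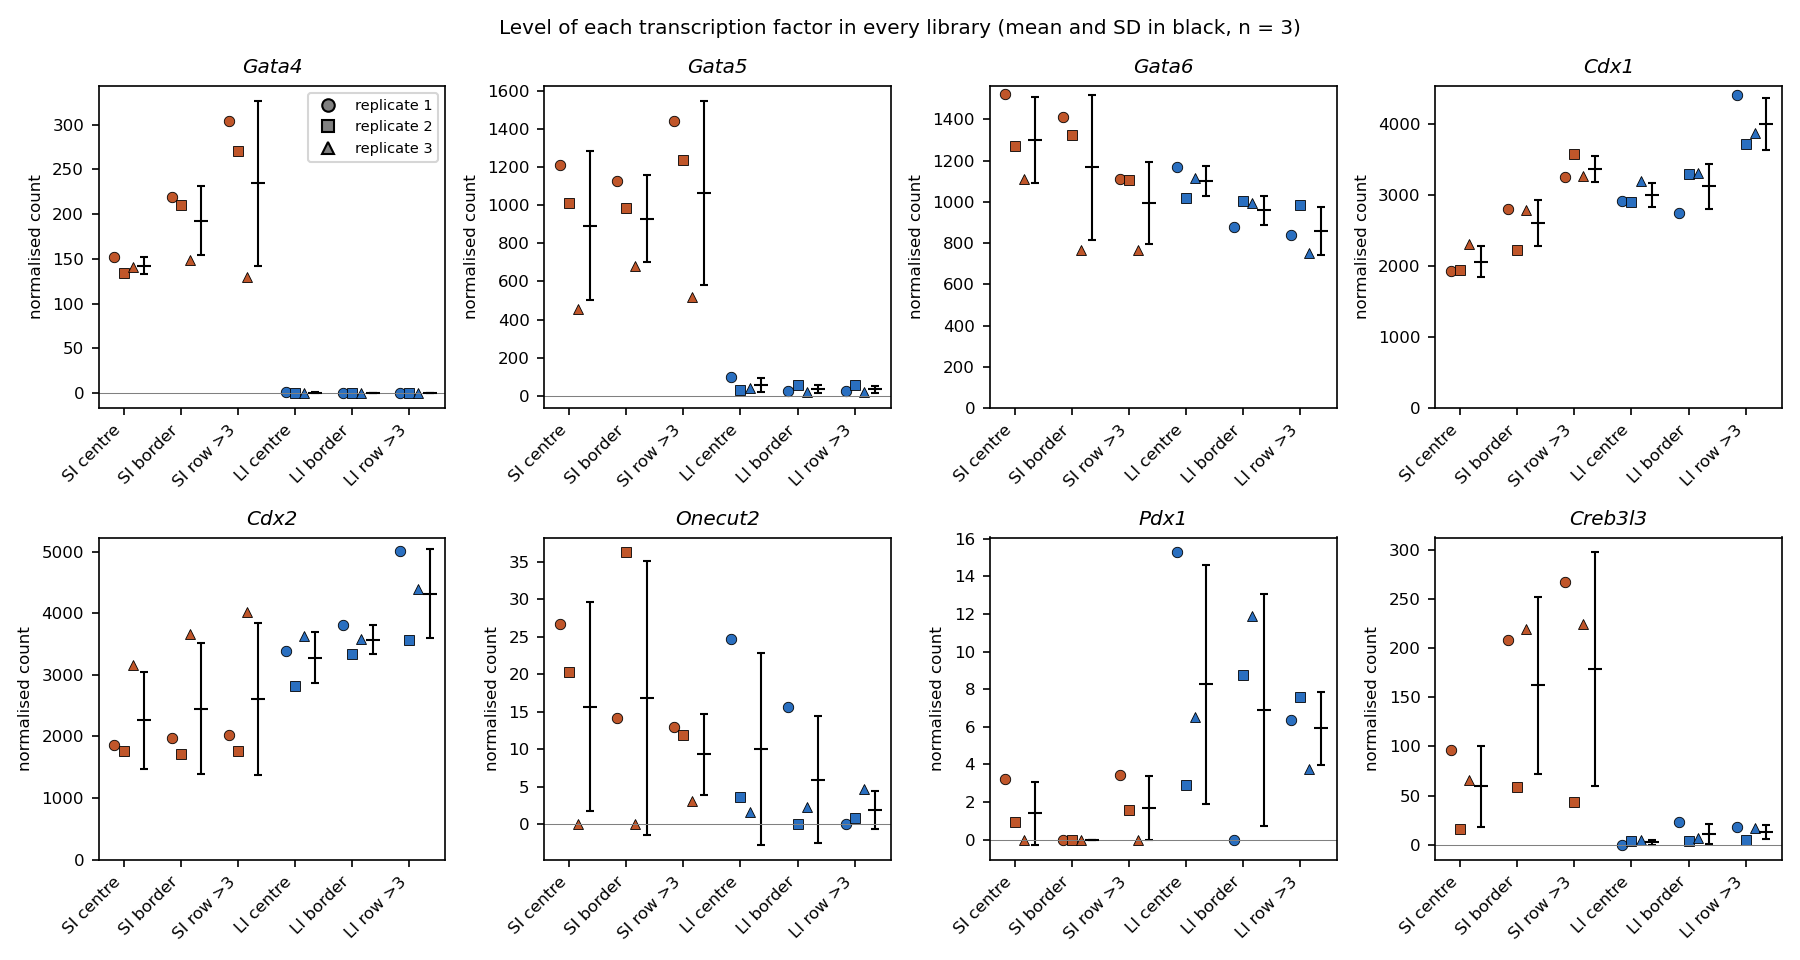
Normalised count of each of the 8 members in every library, one panel per gene with its own axis, with points for libraries and black marks for the mean and SD of 3 replicates. Gata4 and Gata5 are present in all 9 SI libraries and low or at 0 in the LI, Gata6, Cdx1 and Cdx2 are present at both sites, and Onecut2 and Pdx1 stay under 37 normalised counts.

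Gata4 was an SI transcript. In SI centre cells replicates 1 to 3 had 152, 134 and 141 normalised counts, in border cells 220, 210.0 and 148, and in row >3 cells 304, 270.1 and 130. In the LI, 1 count was found in centre replicate 1, a normalised count of 1.18, and none in the other 8 libraries. A 0 in 1 LI library allows up to 2.19 to 3.74 normalised counts at 3 counts. The sites did not overlap at any level. Summed over replicates, 485 counts in SI centre cells stood against 1 in the LI, a ratio of 493 per size factor with an exact 95% interval of 88.0 to 19492.5 for counting error. Against a floor of 3 counts over the group, Gata4 was at least 199-fold higher in SI than in LI border cells (396 counts against 0) and at least 299-fold higher in row >3 cells (869 counts against 0). The adjusted p for Gata4 in centre cells was 3.83e-05, that in border cells 1.33e-05 and that in row >3 cells 2.43e-06, and the call stood in all 32 alternatives at each level.

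Gata5 followed the same division between the sites, but was detected in every LI library. It had 1213, 1009 and 457 normalised counts in SI centre, 1129, 982 and 679 in border and 1439, 1237 and 519.8 in row >3 replicates 1 to 3. In the LI it had 98.8, 29.2 and 40.9 in centre, 26.6, 58.6 and 17.1 in border and 26.4, 53.9 and 18.9 in row >3 cells. The lowest SI library was thus above the highest LI library by several fold, and SI replicate 3 was the lowest of the SI at every level. The log2 difference of SI over LI was 4.0 (SE 0.56, adjusted p 0.0016) in centre cells, 4.78 (SE 0.60, adjusted p 0.000718) in border cells and 4.91 (SE 0.59, adjusted p 0.000185) in row >3 cells. Without SI replicate 3 it was 4.39, 5.03 and 5.28, and the call stood in all 32 alternatives at each level.

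Gata6 was present at both sites. The group means were 1301 ± 209, 1167 ± 352 and 995.3 ± 198 normalised counts (SD, n = 3) in SI centre, border and row >3 cells and 1101 ± 74.8, 958.7 ± 70.3 and 859.6 ± 118 in the LI. The sites overlapped at all levels. SI over LI differed by 0.18 on the log2 scale in centre (95% interval -0.23 to 0.60, adjusted p 0.778), 0.21 in border (-0.21 to 0.63, adjusted p 0.775) and 0.15 in row >3 cells (-0.26 to 0.57, adjusted p 0.843). Leaving out SI replicate 3 gave 0.33 in centre cells (-0.0020 to 0.65, adjusted p 0.236), 0.47 in border cells (0.13 to 0.81, adjusted p 0.0829) and 0.36 in row >3 cells (0.03 to 0.69, adjusted p 0.175), and Gata6 was not called in either fit.

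**Figure D3:**
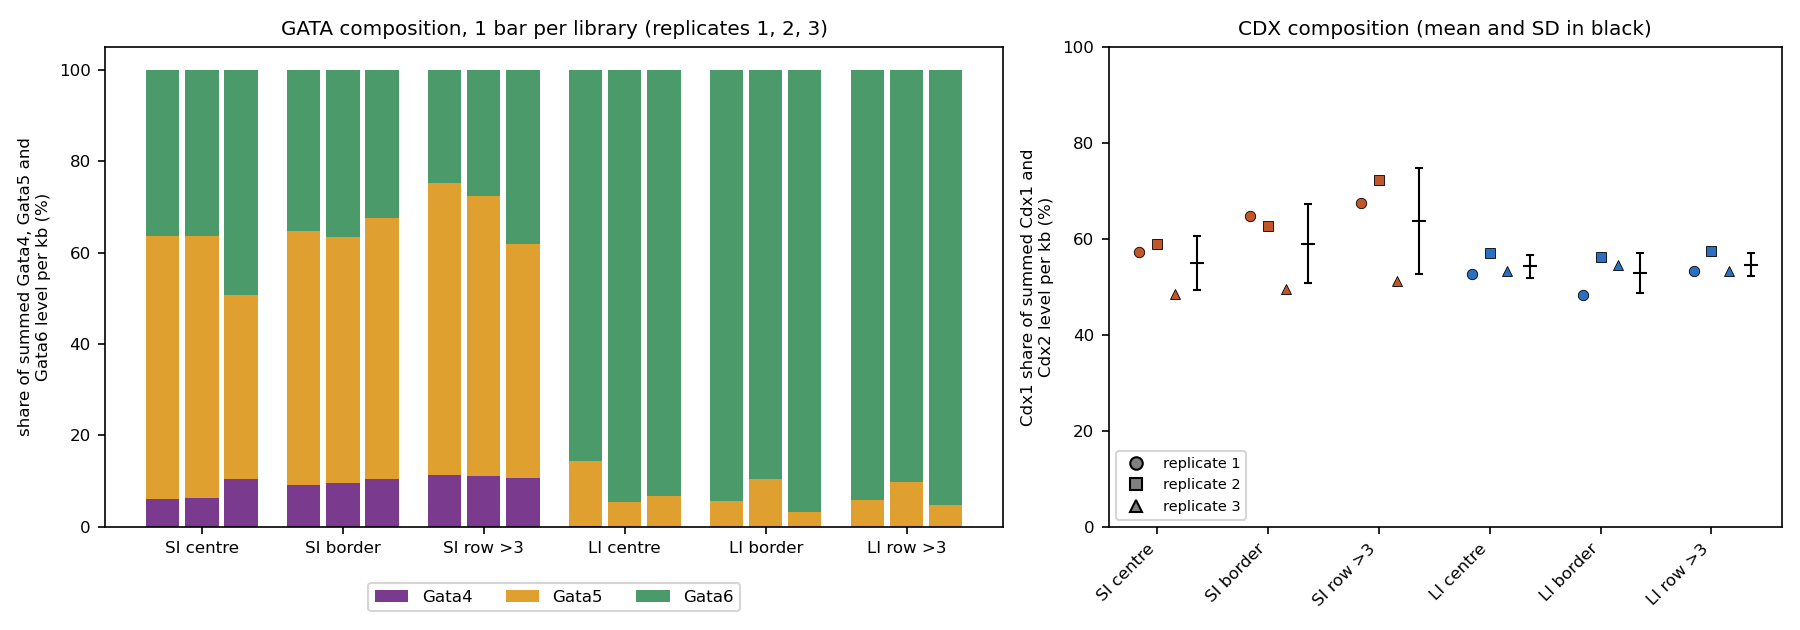
Share of Gata4, Gata5 and Gata6 in their summed level per kb of exon in each library (stacked, in percent), and share of Cdx1 in the Cdx1 and Cdx2 sum. Gata6 makes up 85.5% to 96.7% of the GATA sum in the LI and 24.8% to 49.3% in the SI, and the Cdx1 share overlaps between the sites.

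The GATA factors could be set beside each other per length, as normalised counts per kb of exon. The summed level of Gata4, Gata5 and Gata6 was 310 to 688 per kb in the SI with a median of 557, and 121 to 210 per kb in the LI with a median of 166. Gata5 took 40.3% to 63.8% of this sum in the SI and 3.30% to 14.4% in the LI. Gata4 took 6.07% to 11.3% in the SI and at most 0.144% in the LI. Gata6, the remainder, was the leading GATA transcript per length in every LI library. In SI replicate 3, Gata6 reached 49.3% in centre cells, while SI replicates 1 and 2 lay between 24.8% and 36.5%.

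Within the SI, Gata4 was called between centre and row >3 cells without SI replicate 3 and with the replicate block. Gata6 was called with the block alone and Gata5 in no fit. Of all genes, 17.1% were called there without SI replicate 3 and 22.8% with the block. From centre to row >3 cells, Gata4 differed by 0.74 on the log2 scale (95% interval 0.02 to 1.46, adjusted p 0.195), by 1.0 without SI replicate 3 (adjusted p 0.0292) and by 0.73 with the replicate number as a block (adjusted p 0.0459). Replicates 1 and 2 were higher in row >3 than in centre cells, and replicate 3 was not. Gata6 differed by -0.38 (adjusted p 0.265), and by -0.39 with the block (adjusted p 0.0384). It was lower in row >3 than in centre cells in each of the 3 SI replicates and each of the 3 LI replicates. In the LI the difference was -0.35 (adjusted p 0.805), with no overlap between the groups, as for 14.7% of all genes in either direction. Without SI replicate 3 this LI difference was -0.36 (95% interval -0.66 to -0.06, adjusted p 0.264). Gata5 differed by 0.26 in the SI (95% interval -0.73 to 1.25, adjusted p 0.823).

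Cdx1 was abundant at both sites and rose from centre to row >3 cells in the SI. Replicates 1 to 3 had 1931, 1948 and 2309 normalised counts in SI centre, 2803, 2225 and 2791 in border and 3259, 3582 and 3275 in row >3 cells. All 3 row >3 libraries were above all 3 centre libraries, which was so for 24.9% of genes in either direction. The log2 difference was 0.71 (SE 0.14, 95% interval 0.41 to 1.01, adjusted p 0.00199), and Cdx1 was the 1 member called, where 13.2% of all genes were called. It was 0.82 without SI replicate 3 (adjusted p 0.000625), where 17.1% of genes were called and Gata4 was the other member. The call was lost without SI replicate 1 (0.69, adjusted p 0.0674).

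In the LI, Cdx1 had 2913, 2900.3 and 3200.5 normalised counts in centre, 2753, 3300.0 and 3317 in border and 4408, 3713 and 3878 in row >3 cells. Again all 3 row >3 libraries were above the centre libraries, as were 14.7% of genes above or below. The log2 difference of 0.41 (95% interval 0.12 to 0.71, adjusted p 0.531) was not called, in a comparison where 0.0187% of genes were, which is 5 genes. That count was 497 without SI replicate 3, 243 with the groups compared alone, 93 with DESeq2 and 692 with the replicate block, and Cdx1 was in none of them. Its log2 difference was 0.40 without SI replicate 3 (adjusted p 0.129) and 0.42 with the block (adjusted p 0.0571). The difference of the SI and LI differences was 0.30 (95% interval -0.13 to 0.72, adjusted p 0.942), so the rise in the SI was not shown to exceed that in the LI.

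Between the sites, Cdx1 was lower in SI than in LI centre cells, by 0.60 on the log2 scale (log2 difference -0.60, SE 0.14, adjusted p 0.0304), and these libraries did not overlap. This call was lost in 5 of the 6 fits that left out 1 centre library, all but SI replicate 3, with log2 differences of -0.64 to -0.54 and adjusted p between 0.0507 and 0.162. It was also lost with the groups compared alone (-0.56, adjusted p 0.0644) and without all libraries of SI replicate 1 or 2 or of LI replicate 2 or 3 (-0.60 to -0.52, adjusted p 0.166 to 0.271). In border and row >3 cells the log2 difference was -0.33 (adjusted p 0.308) and -0.30 (adjusted p 0.311). The level of Cdx1 in LI row >3 cells was the highest of the 6 groups. It did not overlap with the next, SI row >3, as for 17.6% of all genes in either direction. SI border and LI centre, neighbours further down in that order, did not overlap either, but the share of all genes was not counted for this pair.

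The difference of Cdx2 between the sites depended largely on SI replicate 3. In the SI, replicates 1 and 2 had 1855 and 1756 normalised counts in centre, 1967 and 1708 in border and 2029 and 1767 in row >3 cells, while replicate 3 had 3168, 3670.3 and 4024. In the LI, replicates 1 to 3 had 3393, 2820.1 and 3629 in centre, 3809.7, 3331 and 3580.7 in border and 5006, 3558 and 4398 in row >3 cells. SI replicates 1 and 2 were below every LI library, and SI replicate 3 lay within the LI range. With 18 libraries the log2 difference of SI over LI was -0.59 in centre (95% interval -1.30 to 0.12, adjusted p 0.46), -0.59 in border (adjusted p 0.478) and -0.78 in row >3 cells (adjusted p 0.257). With all 18 libraries Cdx2 was called in row >3 cells under scaling by library size alone (-0.89, adjusted p 0.0385) and with the replicate block (-0.87, adjusted p 0.0123). Without SI replicate 3 it was -0.88 (adjusted p 0.000396), -1.0 (adjusted p 0.000146) and -1.19 (adjusted p 8.16e-06).

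**Figure D4:**
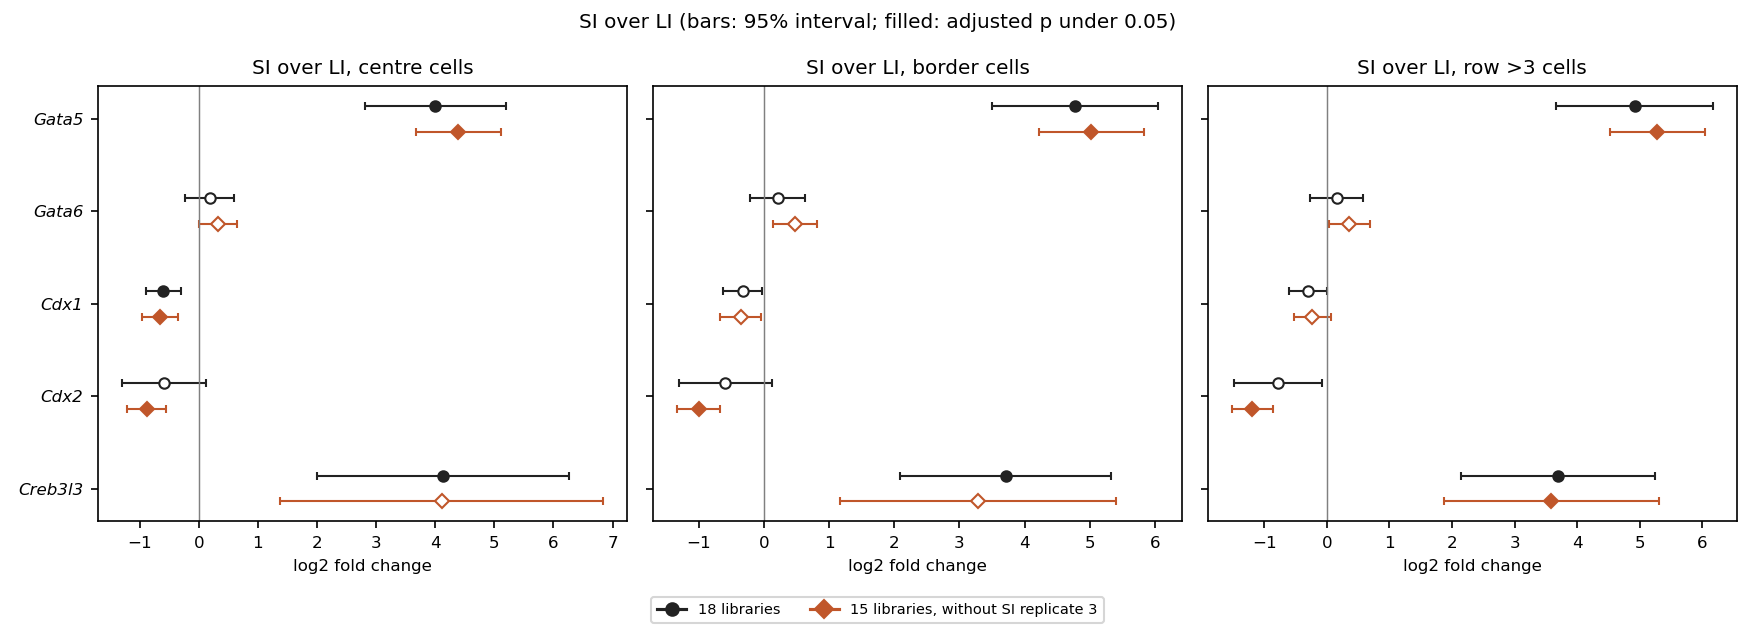
Log2 difference of SI over LI with its 95% interval (x axis) for 5 members at each GFP level, with black circles for 18 libraries and orange diamonds for the 15 without SI replicate 3, filled where the adjusted p is under 0.05. Gata5 stays between 4.0 and 5.28 in both fits, while Cdx2 moves from -0.59 to -0.88 in centre cells and becomes called.

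Per kb of exon, Cdx1 made up 48.5% to 72.4% of the CDX sum in the SI with a median of 58.9%, and 48.3% to 57.4% in the LI with a median of 53.3%. In SI replicate 3 the share was 48.5% to 51.3%, and in SI replicates 1 and 2 it was 57.4% to 72.4%. Between GFP levels Cdx2 differed by 0.21 in the SI (95% interval -0.50 to 0.92, adjusted p 0.801) and by 0.40 in the LI (95% interval -0.31 to 1.10, adjusted p 0.957) from centre to row >3 cells. All groups share 1 estimate of the spread, so SI replicate 3 also enters the LI interval. Leaving it out gave 0.08 in the SI (-0.27 to 0.43, adjusted p 0.902) and 0.39 in the LI (0.10 to 0.67, adjusted p 0.180). With the replicate block, Cdx2 was called in the LI (0.40, adjusted p 0.0399), the 1 member where 2.59% of genes were called. It was higher in row >3 than in centre cells in all 3 LI replicates.

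Creb3l3 was higher in the SI, with a wide spread between replicates, and was detected in 8 of 9 LI libraries. Replicates 1 to 3 had 96.4, 15.7 and 66.2 normalised counts in SI centre, 208, 58.3 and 220 in border and 267, 43.4 and 225 in row >3 cells. In the LI they had 0, 3.64 and 4.91 in centre, 22.9, 3.74 and 7.44 in border and 18.2, 5.31 and 16.97 in row >3 cells. The sites did not overlap at any level, and SI replicate 2 was the lowest SI library at each. The log2 difference of SI over LI was 4.13 in centre (SE 1.03, adjusted p 0.0362), 3.71 in border (SE 0.78, adjusted p 0.0152) and 3.69 in row >3 cells (SE 0.74, adjusted p 0.005). Counting all members, those whose libraries did not overlap between sites were Gata4, Gata5, Creb3l3 and Cdx1 in centre cells. In border cells they were Gata4, Gata5 and Creb3l3, and in row >3 cells Gata4, Gata5, Creb3l3, Cdx1 and Pdx1. Of all genes, 18.2%, 15% and 17.6% did not overlap in these 3 comparisons.

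The calls of Creb3l3 rested on few libraries. In centre cells the call was lost without SI centre replicate 1 (3.59, adjusted p 0.176), LI centre replicate 1 (3.71, adjusted p 0.121), LI centre replicate 2 (4.29, adjusted p 0.151), LI centre replicate 3 (4.63, adjusted p 0.152) or all SI replicate 3 libraries (4.11, adjusted p 0.0511). It was lost there too with no filter on counts (4.13, adjusted p 0.0643), and without all libraries of SI replicate 1 or of LI replicate 1, 2 or 3 (3.6 to 4.65, adjusted p 0.114 to 0.232). In border cells it was lost without SI border replicate 1 (3.55, adjusted p 0.0536), LI border replicate 2 (3.39, adjusted p 0.0828), LI border replicate 3 (3.43, adjusted p 0.108), all LI replicate 2 (3.39, adjusted p 0.179), all LI replicate 3 (3.44, adjusted p 0.217) or all SI replicate 3 libraries (3.28, adjusted p 0.0536). In row >3 cells it stood without SI replicate 3 (3.59, adjusted p 0.00561) and was lost without all LI replicate 2 (3.28, adjusted p 0.110) or all LI replicate 3 libraries (3.92, adjusted p 0.0691). The size of the difference thus stayed above 3 on the log2 scale in each of these fits.

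Within the SI, each replicate had more Creb3l3 in border and in row >3 cells than in centre cells. The log2 difference of row >3 over centre was 1.57 (95% interval 0.30 to 2.83, adjusted p 0.102), and it was called with the replicate block (1.57, adjusted p 0.000251), without SI row >3 replicate 2 (2.05, adjusted p 0.0123) and without all SI replicate 2 libraries (1.60, adjusted p 0.0299). Border over centre was 1.41 (adjusted p 0.508), and 1.5 with the block (adjusted p 0.0143). With 18 libraries and no block, 0.0112% of genes and no member were called in border over centre in the SI, and with the block 2.32% of genes and 1 member, Creb3l3. In row >3 over centre the block called 22.8% of genes and 4 members, Gata4, Gata6, Cdx1 and Creb3l3. Both comparisons share the centre libraries. In the LI, row >3 over centre was 2.01 (95% interval -0.68 to 4.70, adjusted p 0.866) and border over centre 1.84 (95% interval -0.94 to 4.61, adjusted p 1), neither of them called. The LI row >3 libraries lay above the centre libraries with no overlap, as for 14.7% of all genes in either direction. The LI centre libraries were near the floor, with 0, 5 and 6 counts.

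**Figure D5:**
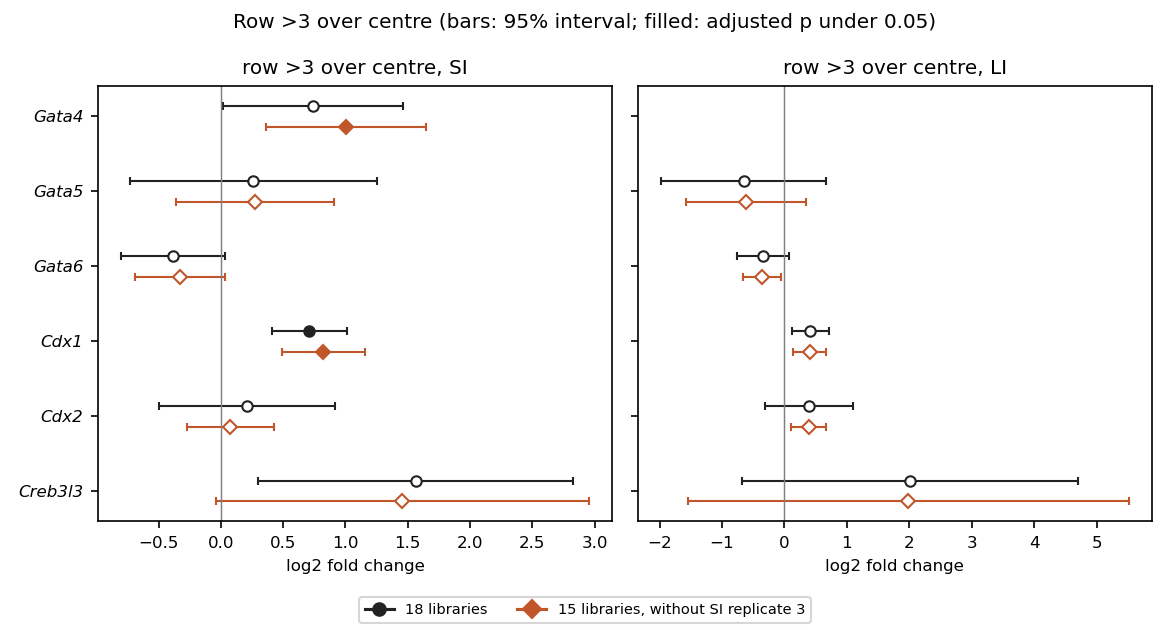
Log2 difference of row >3 over centre cells with its 95% interval (x axis) for members in the SI (left) and LI (right), with black circles for 18 libraries and orange diamonds for the 15 without SI replicate 3, filled where the adjusted p is under 0.05. Cdx1 in the SI is called in both fits, Gata4 in the SI in the fit without SI replicate 3, and no member in the LI.

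Onecut2 and Pdx1 were near the limit of detection. Onecut2 had 26.7, 20.3 and 0 normalised counts in SI centre, 14.2, 36.3 and 0 in border and 12.99, 11.8 and 3.12 in row >3 replicates 1 to 3. In the LI it had 24.7, 3.64 and 1.64 in centre, 15.6, 0 and 2.23 in border and 0, 0.759 and 4.72 in row >3 cells. All groups overlapped, and the 3 lowest SI values were those of SI replicate 3. SI over LI was 0.86 on the log2 scale in centre (95% interval -1.17 to 2.89, adjusted p 0.79), 1.32 in border cells (adjusted p 0.73) and 2.45 in row >3 cells (adjusted p 0.469). In the fit without SI replicate 3 it was 1.49 in centre cells (95% interval -0.16 to 3.14, adjusted p 0.301), 2.13 in border cells (0.14 to 4.11, adjusted p 0.221) and 2.76 in row >3 cells (0.20 to 5.33, adjusted p 0.181), and it was not called in either fit.

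Pdx1 had 3.24, 0.921 and 0 normalised counts in SI centre, 0 in all 3 border libraries and 3.42, 1.58 and 0 in row >3 cells. In the LI it had 15.3, 2.92 and 6.54 in centre, 0, 8.73 and 11.9 in border and 6.38, 7.59 and 3.77 in row >3 cells. The values were thus higher in most LI than SI libraries, with no overlap in row >3 cells, but no difference was called. For SI over LI it was -2.30 on the log2 scale in centre (adjusted p 0.352) and -1.56 in row >3 cells (adjusted p 0.576). In border cells 23 counts in the LI stood against 0 in the SI, at least 5.08-fold higher against a floor of 3 counts over the group, with an adjusted p of 0.217. A 0 in 1 SI library allows up to 2.05 to 7.08 normalised counts. The pancreatic acinar genes Cpa1 and Prss2 were at 0 in every library, and the summed level of 5 such markers was 0 to 17.6 normalised counts. Of 5 gastric markers, Gkn1 was at 0 in every library and Tff2, a trefoil factor, was lower in the SI, with 0 to 8.42 normalised counts against 4.99 to 36.4 in the LI. Its log2 difference was -4.49 in row >3 cells (adjusted p 0.0312), the 1 gastric marker called, and without SI replicate 3 it was called in centre cells as well (-7.21, adjusted p 0.0295). The mucin Muc5ac had a median of 0.744 and a highest value of 212 in the LI and was not called.

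No member was called in border over centre in the LI, where 0% of genes were called by edgeR and 368 had an unadjusted p under 0.05. No member was called for a difference between the sites in its change from centre to border or from centre to row >3 cells, where intervals were wide for most members, as for Gata5 in the latter (0.92, 95% interval -0.73 to 2.57). In these tests of the difference 0% of genes were called by edgeR with 18 libraries in either case, with 707 and 1800 at an unadjusted p under 0.05. The calls were 42 and 857 genes without SI replicate 3, 0 and 620 with the replicate block, and 2 and 149 with DESeq2. No member was among them.

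Genes that are known to be controlled by these factors were counted beside them, each against the counts over all genes, whose median log2 difference was 0. With 18 libraries 317 genes were higher in the SI and 215 lower in centre cells, 308 and 162 in border cells, and 738 and 354 in row >3 cells. Over the 15 libraries it was 1180 and 1674, 969 and 1153, and 1781 and 1403. Of 12 proximal SI genes, known as genes of the jejunum and duodenum, 7 were higher in SI than LI centre cells and none lower, with a median of 4.19. In border cells 6 were higher and in row >3 cells 9, with a median of 5.91 in the latter. Leaving out SI replicate 3, it was 6 higher and 1 lower in centre cells, 6 higher in border and 11 higher in row >3 cells, and the lower one was Dgat2, a triglyceride synthesis enzyme (-1.45, adjusted p 0.0481). Abcg5 and Abcg8, the subunits of a sterol exporter, were higher by 7.68 (adjusted p 9.39e-10) and 5.24 (adjusted p 3.28e-05) in SI centre cells, and Npc1l1, which takes up cholesterol, by 6.67 (adjusted p 0.000205). Abcg5 had 351 to 1144 normalised counts in the SI and at most 3.72 in the LI. Of 7 ileal genes for bile acid and vitamin uptake, none was called in centre cells, 2 were higher in border and 5 in row >3 cells, and without SI replicate 3 these counts were 1, 2 and 7. Fabp6, the ileal bile acid binding protein, was higher by 8.68 in SI row >3 cells (adjusted p 0.000668), and it was the 1 called in centre cells without SI replicate 3 (5.46, adjusted p 0.0163). Genes of jejunal and of ileal type were thus both present in the SI libraries, with 81.1 to 11237 normalised counts of Fabp6. From centre to row >3 cells of the SI, the proximal SI genes Fabp1, Npc1l1, Slc40a1, Rbp2, Treh and Dgat2 were called higher with 18 libraries. Without SI replicate 3, Abcg5 was called (0.99, adjusted p 0.00546) and Treh was not (1.55, adjusted p 0.0671). The ileal genes Fabp6, Slc10a2, Slc51a and Slc51b were called higher in both fits, and no gene of these lists was called lower.

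Of 6 genes known as Creb3l3 targets, 3 were higher in the SI at each level and none lower, with a median of 2.94 in centre cells, 2.02 in border cells and 2.11 in row >3 cells. Apoa1, an apolipoprotein of high-density lipoprotein, had 316 to 8823 normalised counts in the SI and 0 to 139 in the LI, a log2 difference of 9.0 in centre cells (adjusted p 0.00152). Apoc2, the cofactor of lipoprotein lipase, was higher by 5.88 in centre cells (adjusted p 0.00588). Apoa4, the other called target, had 202 to 581 normalised counts in SI centre and was at 0 in all 3 LI centre libraries. Apoa4 is also in the list of proximal SI genes. SI replicate 2 had the lowest summed level of these targets in centre cells, 596 against 2623 in replicate 1 and 1441 in replicate 3, and it was also lowest for Creb3l3. This was not particular to these targets. The same library was lowest of SI centre for the sums of proximal SI genes (1491), ileal genes (335) and mature enterocyte markers (4728). From centre to row >3 cells of the SI none of the 6 was called.

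Genes known as Cdx2 targets were counted by GFP level and by site. From centre to row >3 cells of the SI, 6 of 8 were higher and none lower, with a median of 1.82, and without SI replicate 3 all 8 were. Such a rise was not particular to Cdx2 targets, since the proximal SI and ileal genes named above were called higher there too. Vil1, the microvillus protein villin, differed by 1.19 (adjusted p 8.17e-05), Lgals4, a galectin of the brush border, by 1.60 (adjusted p 0.000854) and Cdh17, the liver-intestine cadherin, by 1.13 (adjusted p 0.00202). Over all genes 1963 were higher and 1555 lower, and 2610 and 1855 without SI replicate 3. Between SI and LI centre cells none of the 8 was called, and in row >3 cells 2 were higher, Vil1 by 1.03 (adjusted p 0.000563) and the disaccharidase Sis by 7.13 (adjusted p 0.00217). When SI replicate 3 was left out, 2 were lower in SI centre cells, the goblet cell mucin Muc2 (-3.30, adjusted p 0.000824) and the brush border protocadherin Cdhr5 (-1.57, adjusted p 0.000678), and 3 were higher in row >3 cells. In border cells 1 was higher in both fits. Sis had 228 to 7685 normalised counts in the SI and 3.53 to 53.2 in the LI.

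Among 13 transcription factors and cofactors that work beside the members, 2 were higher in SI centre cells and none lower, and without SI replicate 3 it was 2 and 3. In border cells 2 were higher with 18 libraries, against 2 higher and 2 lower without SI replicate 3, and in row >3 cells 3 were higher, against 6 higher and 1 lower. In SI centre cells Zfpm1, which binds GATA factors, was higher by 4.11 (adjusted p 0.0178), and Nr5a2, a nuclear receptor of the crypt, by 0.79 (adjusted p 0.0498). In row >3 cells Hnf4g, a nuclear receptor of enterocytes, was higher in the SI by 1.29 (adjusted p 0.00186). From centre to row >3 cells of the SI, Isx, a homeobox gene of vitamin A uptake, differed by 1.15 (adjusted p 0.000193), Foxa3 by 0.97 (adjusted p 0.00324) and Hnf4g by 0.79 (adjusted p 0.0233), so that 3 were called there, and 4 without SI replicate 3. Of 8 colon genes none was called in 18 libraries at any level between the sites, and without SI replicate 3, 5 of the 7 tested were lower in SI centre cells and 4 in border and in row >3 cells. In row >3 over centre of the SI 1 of them was lower with 18 libraries, and without SI replicate 3 it was 3 higher and 1 lower.

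Paralogues of the members were tested as well, 9 of 10 having a count, while Onecut1 was at 0 in every library. With 18 libraries none was called between SI and LI in centre or border cells, and Creb3l2 was higher in SI row >3 cells by 1.46 (adjusted p 0.0176). In the fit without SI replicate 3, Creb3l1 was lower in SI centre (-2.56, adjusted p 4.51e-09) and border cells (-0.80, adjusted p 0.00719), Creb3l4 was lower in centre cells (-1.63, adjusted p 0.000813), Creb3l2 was higher in centre (1.01, adjusted p 0.00865) and border cells (1.22, adjusted p 0.00344), and 2 were higher in row >3 cells. From centre to row >3 cells of the SI, 5 of the 9 were higher in both fits. Creb3l1, which is expressed in secretory cells, differed by 1.95 (adjusted p 0.025), Creb3l4 by 1.82 (adjusted p 0.00726), Creb3l2 by 1.28 (adjusted p 0.0151) and Creb3 by 0.88 (adjusted p 0.0399), so all 4 relatives of Creb3l3 were called there. The fifth was Onecut3, at 0 in all SI centre libraries and at 1.56 to 34.0 normalised counts in SI row >3 cells.

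Markers of other cells moved with site and with GFP level. Of 5 Paneth cell markers 4 were higher in the SI at each level, and their summed level was 4257 to 160057 normalised counts in the SI and 0 to 245 in the LI, where Lyz1 was at or near 0. Of 5 mature enterocyte markers 0, 2 and 2 were higher in SI centre, border and row >3 cells, and 3 rose from centre to row >3 cells of the SI, with a summed level of 4728 to 7712 in SI centre, 15829 to 50053 in SI row >3 and 4398 to 7828 in the LI. Of 5 stem cell markers 3 fell from centre to row >3 cells of the SI, Lgr5 by 4.58 (log2 difference -4.58, adjusted p 0.00399). Of 7 enteroendocrine markers 0, 0 and 2 were higher in the SI, and the summed level was 373 to 10213 in the SI and 1025 to 5481 in the LI. Within the SI 2 of them rose from centre to row >3 cells, Pax6 by 4.22 (adjusted p 0.01) and Cck by 3.16 (adjusted p 0.0217), and 4 without SI replicate 3. Of 6 immune markers 0, 1 and 1 were higher in the SI, with a summed level of 181 to 1600 against 72.0 to 351, and of 6 stromal markers none was called, with sums of 35.7 to 212 and 61.1 to 280. No immune, stromal or Paneth cell marker was called with 18 libraries from centre to row >3 cells of the SI. In the 15 libraries, where Gata4 and Cdx1 were called, the leukocyte marker Ptprc (2.47, adjusted p 0.0139) and the myeloid marker Itgam (1.87, adjusted p 9.79e-06) rose there. The pericyte marker Pdgfrb (1.73, adjusted p 0.00297) and the Paneth cell protease Mmp7 (1.31, adjusted p 0.033) rose too, and the B cell marker Cd79a fell (-7.23, adjusted p 0.033). All other Paneth cell markers had log2 differences below 0 in that fit, from -0.54 to -0.04, and were not called. With the 15 libraries the counts higher in the SI became 5, 4 and 4 for Paneth cell markers, 1, 1 and 3 for enterocyte markers, 0, 0 and 3 for enteroendocrine markers, with 1 lower at each level, and 1, 1 and 1 for immune markers. Stem cell markers called higher in the SI were 1 at each level with 18 libraries and 3 without SI replicate 3, and 5 then fell from centre to row >3 cells of the SI. In the LI no gene of any list was called from centre to row >3 cells with 18 libraries. With 15 libraries 4 of 5 stem cell markers fell there, among them Lgr5 (-3.02, adjusted p 0.000675), and the enteroendocrine Sct, the Cdx2 target Lgals4, the partner Isx and 2 colon genes were higher and 1 colon gene lower. The part of these cells in the results for the members was not tested.

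The genes whose pattern was most like that of each member were found by Pearson's r of log2(CPM + 1) over the 18 libraries, among 10219 genes with a mean of at least 5 CPM. The libraries share their site, so any gene with a large difference between sites gives a high r. For Gata4 they were Abcg5 (r = 0.994), Lgals2 (0.990) and Rragd (0.989), for Gata5 Myrf (0.982), Abcg8 (0.979) and Gp1bb (0.978), and for Gata6 Tifa (0.913), Syde2 (0.912) and Smoc2 (0.910). For Cdx1 they were Stard10 (0.956), Surf4 (0.954) and Nans (0.951), for Cdx2 Best2 (0.983), B3gnt6 (0.976) and Lpl (0.975), and for Creb3l3 Ace (0.971), Pdzk1 (0.971) and Cubn (0.959). Without SI replicate 3 all 18 coefficients stayed between 0.883 and 0.996. Onecut2 and Pdx1, at means of 0.484 and 0.203 CPM, were not searched. Among the members, Gata4 and Gata5 had an r of 0.977, and Cdx2 had an r of -0.743 with Gata4, which was -0.932 without SI replicate 3.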

How the data were processed

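RNA of sorted Lgr5+ cells was sequenced from 18 libraries. Per the labels and methods, the authors used bcl2fastq, Skewer, STAR and mm10, and deposited raw counts per gene. Their second deposited table is a signal, counts divided by a DESeq2 size factor, for the 24814 genes whose summed count was 2 or more. Their annotation release and strand setting: not given in the sources used here. No per-sample column was left unused.

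Differences were tested on counts with edgeR 4.0.16 (R 4.3.3), TMM factors and a robust quasi-likelihood fit of 6 groups (12 residual degrees of freedom), after the code was tested on simulated data. DESeq2 1.42.0, other filters and scalings, a replicate block, the groups compared alone and libraries left out were alternatives. The legacy quasi-likelihood fit was added after seeing the data. Descriptions used Python 3.11.15. Intervals and floors of counts (3 counts) cover counting error alone, since PCR reads are not independent molecules.

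The members, the 15 gene lists and the tests were chosen with earlier results of these data known. All 8 members are named, up to 4 genes per list with the smallest adjusted p, defining genes near 0, and 3 genes most alike per member at or above 1 CPM. Genes outside this rule are Car1, Slc37a2, Creb3, Lct, Dgat2, Rbp2, Treh, Muc2, Cdhr5, Fgf21, Apoa5 and Cidec, named after their values were seen. A few genes are not reported here. Replicate numbers come from the labels. Deviations from the group mean correlated between equal numbers by 0.322 to 0.742 for 9 pairs in the SI and 0.371 to 0.646 for 9 in the LI. Within a site the replicate block thus took equal numbers as pairs, while the main fit had no block and left this pairing out. Across sites r was -0.106 to 0.376 and over 0.1 for 12 of 27 pairs, and for replicate number 2 it was 0.190 to 0.376.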

Additional observations from a re-analysis of the deposited data

How the results depend on the processing

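Gata4 and Gata5 were called between SI and LI at every level in all 32 alternatives, with log2 differences of Gata5 no lower than 3.69 in centre cells. Creb3l3 was called in 22, 26 and 30 of 32 at the 3 levels, Cdx1 in centre cells in 22, Cdx2 in 1, 1 and 4, and Cdx1 in row >3 over centre of the SI in 31. The 32 include fits that left out 1 library of a group outside the comparison, which bear on it only through the shared spread and scaling. These tallies thus overstate how well a call stood when a library of the compared groups was left out. With libraries left out, 2 to 4 members were called between sites in centre cells, and 0 to 2 in row >3 over centre of the SI, where it was 2 without SI replicate 3, SI replicate 2 or SI row >3 replicate 2, and 0 without SI replicate 1. Over all genes, these fits called 80 (without LI replicate 2) to 2854 genes (without SI replicate 3) between sites in centre cells. In row >3 over centre of the SI they called 701 (without SI replicate 1) to 4465 genes (without SI replicate 3). The replicate block called 1 member in border over centre of the SI, 4 in row >3 over centre of the SI and 1 in row >3 over centre of the LI. Between the sites, where equal numbers were not shown to pair libraries, the block added Cdx2 in row >3 cells (-0.87, adjusted p 0.0123) and changed no other member's call. Among members recomputed under every alternative, directions that turned with a library left out, none of them called in any fit, were those of Onecut2 between border cells (-0.51 to 3.36), of Gata5 (-0.057 to 0.58), Cdx2 (-0.25 to 0.53), Onecut2 (-1.17 to 0.035) and Pdx1 (-0.45 to 1.89) in row >3 over centre of the SI, and of Gata5 (-1.56 to 0.093) and Pdx1 (-0.995 to 0.35) in that of the LI. Without SI replicate 3 the directions of Gata5 (0.04 to -0.11) and Cdx2 (0.12 to -0.0088) in border over centre of the SI and of Gata6 in the difference of row >3 over centre between the sites (-0.03 to 0.03) turned as well, and none was called. The cause was not tested. Scaling by library size alone moved the median of genes with a mean count of at least 50 from 0.02 to -0.17 in row >3 over centre of the SI, where Cdx1 then differed by 0.53. DESeq2 gave no adjusted p for Pdx1 and Onecut2 in some comparisons, and these were left out. Onecut2 had at most 33 counts in a library.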
